A study of Mus musculus with 4 samples.

Results

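Colec12 (ENSMUSG00000036103), the gene of the scavenger receptor collectin-12, was followed through every nucleus class of 4 kidney libraries. It was picked for its measured difference between mouse strains in proximal tubule nuclei, and it is 1 of 25636 genes in the count matrices. Its levels are therefore a description, and no test was made on them. Slc34a1, which encodes the sodium-phosphate cotransporter of the proximal tubule brush border, was read beside it as a gauge of tubule RNA that reaches other nuclei from outside. The animals were female MRL/lpr mice, whose Fas gene carries the lpr mutation and which develop lupus-like nephritis, and female C57BL/6 mice, each strain at 10 and at 6 weeks of age. Kidney nuclei were isolated on an iodixanol gradient and sequenced from the 3' end, with 1 library for each strain and age. The number of mice behind a library is not given in the sources used here. MRL animals with a working Fas gene were not part of the comparison, so the mutation, the rest of the strain background and the disease cannot be told apart.

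Collectin-12 is a membrane protein of the class A scavenger receptor family. A collagen-like stalk carries a C-type lectin domain that binds sugars, and the receptor is known to take up oxidised lipoprotein and microbes. It has been described mainly in vascular endothelium and other stromal cells, and in human serum experiments it recruited properdin and complement. Proximal tubule cells are specialised in endocytosis, for which they use the large receptors megalin (Lrp2) and cubilin (Cubn).

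The annotation places Colec12 on chromosome 18, with 4 transcripts, of which 1 is protein-coding; the longest has 11 exons and 8024 bases. Of the 7 annotated genes that overlap it, 0 are in the matrices, so no overlapping gene could be counted beside it. No other gene shared more than 2.09% of the 31-base words of the Colec12 transcripts, the most being shared with Ccdc82. Of 55449 other genes, however, 2955 shared at least 1 such word on either strand, and 2146 of these are in the matrices. The part of shared words in the Colec12 counts was not tested.

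The libraries held 9889 and 9365 barcodes in MRL/lpr at 10 and 6 weeks and 9638 and 10182 in C57BL/6, and 8662 to 9147 nuclei were kept per library. Kept nuclei had medians of 561 to 693 unique molecular identifiers (UMIs, each the count of 1 captured RNA molecule). Any pair of libraries shared 112 to 143 barcode sequences, and levels without these barcodes are given beside the C57BL/6 results. Between 86.8% and 90.7% of kept nuclei were assigned to a class from raw UMIs of marker genes, and 10 classes had at least 20 nuclei in every library. Proximal tubule markers summed to 16867 to 19895 counts per 1000000 UMIs (CPM) in the proximal tubule class and at most 1599 CPM in any other. Markers of other classes reached up to 4390 CPM outside their class, for thick ascending limb markers in the distal convoluted and connecting tubule. This separation follows from how the classes were set. The intervals given with values have a confidence level of 95% and reflect counting error alone.

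In MRL/lpr kidneys Colec12 was among the genes with most UMIs in the proximal tubule, and in C57BL/6 kidneys it was close to absent there. The values are UMIs that the authors' pipeline counted to the gene; whether all of them come from its usual transcript was not tested, since reads were not analysed here. At 10 weeks proximal tubule nuclei held 20081 Colec12 UMIs in MRL/lpr (4802 CPM, 4736 to 4869) and 27 UMIs in C57BL/6 (7.32 CPM, 4.82 to 10.6). At 6 weeks they held 29380 UMIs in MRL/lpr (6046 CPM, 5977 to 6115) and 127 UMIs in C57BL/6 (35.3 CPM, 29.4 to 42.0). The 2 MRL/lpr libraries lay far above both C57BL/6 libraries, with no overlap of intervals. The MRL/lpr level was 656-fold that of C57BL/6 at 10 weeks (451 to 996) and 171-fold at 6 weeks (144 to 205). The 10-week value, a log2 ratio of 9.36, became 10.36 in nuclei with no UMI of another class's markers, where 4 C57BL/6 UMIs remained. In 1 random thinning to 300 UMIs per nucleus it was 10.19, on 5 C57BL/6 UMIs. A separate draw, used for the shares below, left 8. Counts this low cannot show whether the fold moves with depth or marker purity.

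The share of nuclei with at least 1 Colec12 UMI was also high in MRL/lpr and low in C57BL/6. At 10 weeks 89.5% of 5390 proximal tubule nuclei in MRL/lpr carried the transcript, against 0.617% of 4217 in C57BL/6. At 6 weeks the shares were 94.9% of 5515 nuclei in MRL/lpr and 3.05% of 4002 in C57BL/6. Median depths in this class were 747 and 824 UMIs at 10 weeks in MRL/lpr and C57BL/6, and 791 and 858 UMIs at 6 weeks, so the C57BL/6 nuclei were the deeper ones. After thinning each nucleus to 300 UMIs the shares were 70.8% in MRL/lpr and 0.193% in C57BL/6 at 10 weeks, and 78.4% in MRL/lpr and 0.904% in C57BL/6 at 6 weeks.

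**Figure D1:**
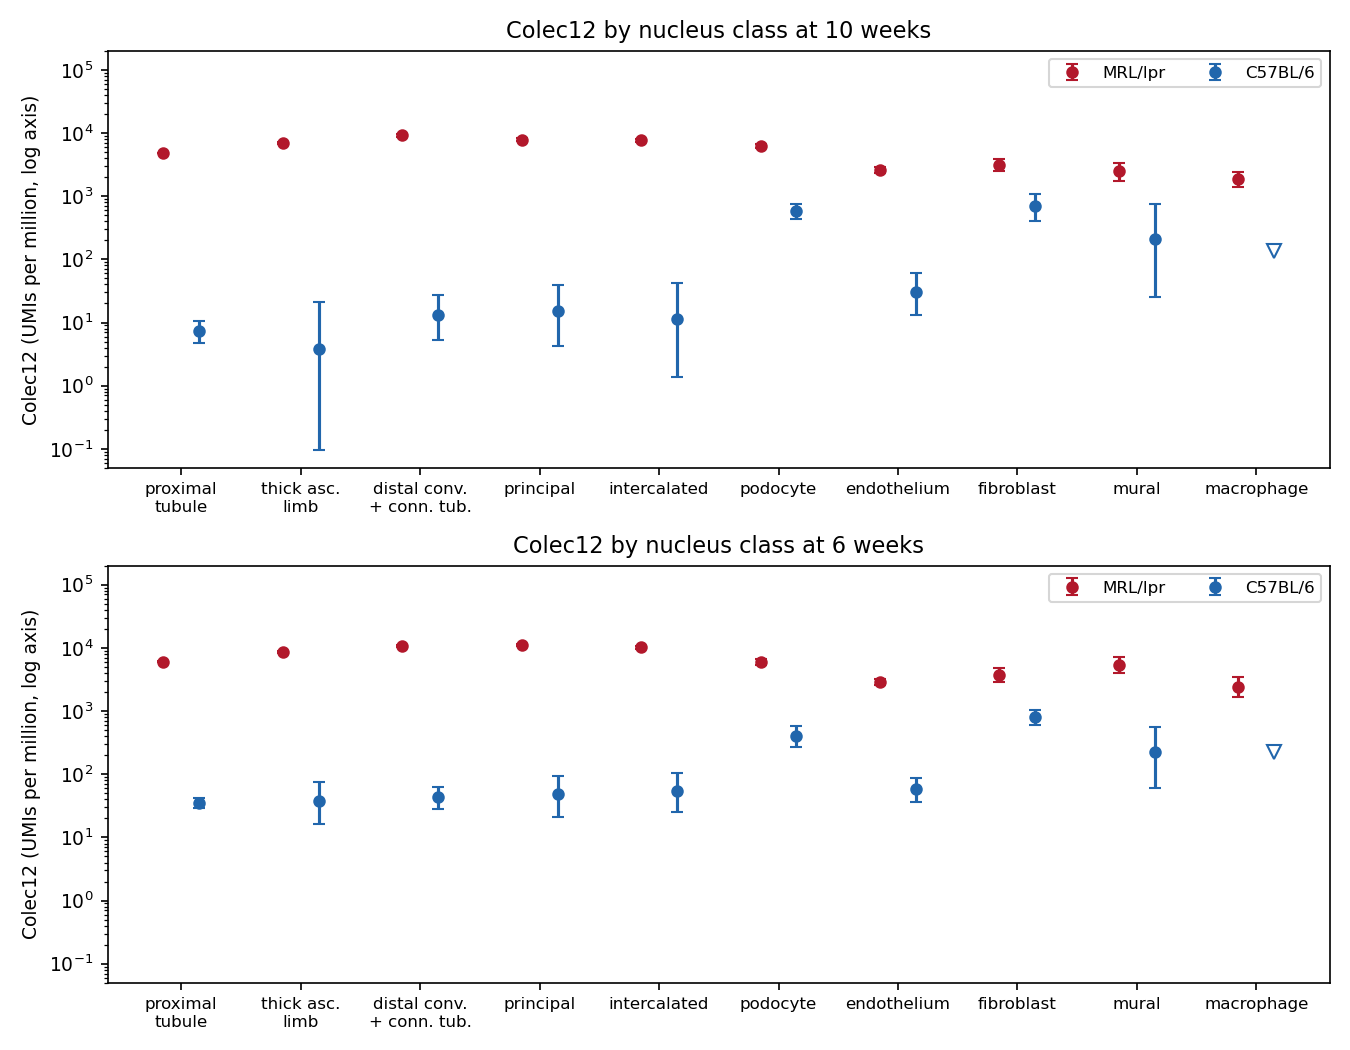
Colec12 level in CPM (log axis) in 10 nucleus classes, with MRL/lpr in red and C57BL/6 in blue, at 10 weeks above and 6 weeks below; points are single libraries, bars are exact Poisson 95% intervals, and an open triangle marks the level of 3 UMIs where none was counted. MRL/lpr lay above C57BL/6 in every class. The C57BL/6 points stood above the tubule level in podocytes, fibroblasts and, on at most 4 UMIs, mural cells. They stood above it by less in endothelium, on 8 UMIs at 10 weeks and 22 at 6 weeks.

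Among all genes of proximal tubule nuclei, Colec12 ranked 4th by UMIs in both MRL/lpr libraries, where UMIs carry no correction for gene length. At 10 weeks it stood below Gpx3 (78714 UMIs), Slc34a1 (38425) and Pde4d (33860), and above Nox4 (18531), Miox (18134) and Fut9 (16916). At 6 weeks the order was Gpx3 (130212 UMIs), Slc34a1 (32487), Pde4d (32485), Colec12 (29380), Miox (25815), Fut9 (18293) and Ftl1 (17991). Gpx3 encodes a secreted glutathione peroxidase made by the proximal tubule, and Miox the enzyme that starts the breakdown of inositol. In C57BL/6 Colec12 ranked 10246th at 10 weeks and 5878th at 6 weeks.

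Of 12072 genes with at least 50 UMIs in the class over the 4 libraries, 317 (2.63%) lay 2-fold or more above C57BL/6 in MRL/lpr at 10 and at 6 weeks alike and 209 (1.73%) 2-fold or more below. At 10 weeks 789 genes (6.54%) were higher and 523 (4.33%) lower by this measure, and at 6 weeks 598 (4.95%) were higher and 515 (4.27%) lower. Colec12 was chosen on this contrast, so its place is a description: it ranked 1st by fold at 10 weeks and 2nd at 6 weeks, where Prss48, with 569 UMIs in MRL/lpr and 1 in C57BL/6, ranked above it. At 10 weeks Prss48 had 417 UMIs in MRL/lpr and 0 in C57BL/6. The median log2 ratio of all genes was 0.06 at 10 weeks and -0.01 at 6 weeks.

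Colec12 was not limited to the proximal tubule of MRL/lpr mice. Its highest levels in CPM were in the distal nephron and collecting duct. In the distal convoluted and connecting tubule it reached 9140 CPM in MRL/lpr at 10 weeks and 10685 CPM at 6 weeks, against 13.3 and 42.9 CPM in C57BL/6. In principal cells, the water- and sodium-reabsorbing cells of the collecting duct, it was at 7828 and 11020 CPM in MRL/lpr and at 15.4 and 48.0 CPM in C57BL/6 in the same order of ages. Acid-base regulating intercalated cells had 7651 and 10207 CPM in MRL/lpr and 11.5 and 54.5 CPM in C57BL/6. The thick ascending limb had 6951 and 8637 CPM in MRL/lpr and 3.85 and 38.0 CPM in C57BL/6, the first of these C57BL/6 values from 1 UMI.

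Within each MRL/lpr library these 4 distal classes lay above the proximal tubule in CPM. At 10 weeks the ratio to the proximal tubule ran between 1.45 (1.38 to 1.52) in the thick ascending limb and 1.90 (1.83 to 1.98) in the distal convoluted and connecting tubule. At 6 weeks it ran between 1.43 (1.37 to 1.49) in the thick ascending limb and 1.82 (1.75 to 1.90) in principal cells. The distal nuclei were shallower, with median totals of 392 to 516 UMIs at 10 weeks and 443 to 613 at 6 weeks, and 87.8% to 94.4% of them at 10 weeks and 95.5% to 97.4% at 6 weeks held a Colec12 UMI. By mean Colec12 UMIs per nucleus, the proximal tubule had 3.73 at 10 weeks and 5.33 at 6 weeks. The thick ascending limb (3.03 and 4.43) and principal cells (3.20 and 5.17) lay below it. The distal convoluted and connecting tubule (4.85 and 6.31) and intercalated cells (4.14 and 6.44) lay above it. In intercalated cells of MRL/lpr at 6 weeks no gene had more UMIs than Colec12.

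Cells outside the tubule also carried more Colec12 in MRL/lpr. Podocytes, the filter cells of the glomerulus, had 6267 CPM in MRL/lpr and 577 CPM in C57BL/6 at 10 weeks, and 5902 CPM in MRL/lpr and 401 CPM in C57BL/6 at 6 weeks. Fibroblasts had 3106 CPM in MRL/lpr and 692 CPM in C57BL/6 at 10 weeks, and 3719 CPM in MRL/lpr and 811 CPM in C57BL/6 at 6 weeks. Endothelium had 2603 and 30.9 CPM at 10 weeks in MRL/lpr and C57BL/6, and 2905 and 57.4 CPM at 6 weeks. In these classes too the intervals of the strains did not overlap at either age.

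The mural class, which joins mesangial, smooth muscle and renin cells, and macrophages rested on few nuclei. Mural nuclei numbered 25 and 27 at 10 weeks in MRL/lpr and C57BL/6, with 2460 and 208 CPM, and 22 and 56 at 6 weeks, with 5424 and 222 CPM. Macrophage nuclei held 61 Colec12 UMIs in 95 nuclei of MRL/lpr at 10 weeks and 0 UMIs in 71 nuclei of C57BL/6, and 32 UMIs in 31 nuclei of MRL/lpr at 6 weeks and 0 UMIs in 37 nuclei of C57BL/6. Set against 3 UMIs, the count that an observed 0 allows per library, the macrophage level at 10 weeks was at least 13.6-fold higher in the MRL/lpr library. The bound at 6 weeks was at least 10.7-fold higher. The lower limits of the exact conditional intervals, which also hold the counting error of the MRL/lpr UMIs, were 10.7-fold and 8.24-fold. By the same 3 counts, 0 allows a share of up to 4.23% of C57BL/6 macrophage nuclei with a UMI at 10 weeks and up to 8.11% at 6 weeks, and the exact binomial upper limits were 5.06% and 9.49%. T and B lymphocyte classes held at most 10 nuclei in a library and were not compared.

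The strain ratio thus differed in size between classes. Over the 5 tubule classes it lay between 507-fold in principal cells and 1806-fold in the thick ascending limb at 10 weeks, the second resting on 1 C57BL/6 UMI (324 to 71386). At 6 weeks it lay between 171-fold in the proximal tubule and 249-fold in the distal convoluted and connecting tubule. These tubule ratios divide by low C57BL/6 levels that are not read as expression. Their sizes are therefore not read as differences in expression between tubule classes. Podocytes had a ratio of 10.9 (8.27 to 14.5) at 10 weeks and of 14.7 (10.2 to 22.0) at 6 weeks. Fibroblasts had a ratio of 4.49 (2.68 to 7.92) at the later age and of 4.59 (3.16 to 6.68) at the earlier. The intervals of the podocyte and fibroblast ratios did not overlap those of any tubule class at the same age. At 6 weeks clusters were also used in place of marker counts. The log2 strain ratio was then 6.42 in endothelium, against 5.66 by markers, and 7.50 in mural cells, against 4.61. These MRL/lpr clusters had Slc34a1 at 4119 CPM in endothelium, against 820 by markers, and at 2926 CPM in mural cells, against 577. In C57BL/6 the values were 645 against 598 and 1953 against 610 CPM. The C57BL/6 mural cluster held 1 Colec12 UMI. In 1 random thinning the 6-week ratio was 10.12 in the thick ascending limb, against 7.83, also on 1 C57BL/6 UMI.

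The order of classes in MRL/lpr was similar at both ages. At 10 weeks the distal convoluted and connecting tubule stood first, followed by principal cells, intercalated cells, the thick ascending limb, podocytes, the proximal tubule, fibroblasts, endothelium, mural cells and macrophages. Each neighbouring pair between principal cells and podocytes overlapped in its intervals, as did each pair between fibroblasts and macrophages. At 6 weeks principal cells, the distal convoluted and connecting tubule and intercalated cells overlapped at the top, the proximal tubule, podocytes and mural cells overlapped in the middle, and fibroblasts, endothelium and macrophages overlapped at the bottom.

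C57BL/6 kidneys had another order, with fibroblasts and podocytes at the top. Colec12 was found in 23.5% of fibroblast nuclei at 10 weeks and 23.9% at 6 weeks, and in 22.0% of podocyte nuclei at 10 weeks and 14.6% at 6 weeks. Fibroblasts exceeded the proximal tubule of the same library 94.6-fold (49.1 to 178) at 10 weeks and 23.0-fold (16.4 to 31.7) at 6 weeks, and podocytes 78.8-fold (49.1 to 130) and 11.3-fold (7.40 to 16.9) in the same order of ages. In MRL/lpr the same ratios were 0.647 (0.519 to 0.796) and 0.615 (0.476 to 0.783) for fibroblasts, and 1.31 (1.20 to 1.42) and 0.976 (0.872 to 1.09) for podocytes. Among C57BL/6 nuclei at 10 weeks with no UMI of the proximal tubule markers, or within the proximal tubule of other markers, the log2 ratios were 7.78 in fibroblasts and 7.11 in podocytes, against 6.56 and 6.30 in all nuclei of these classes. The proximal tubule level that they divide by fell from 7.32 to 3.58 CPM, on 4 UMIs. The podocyte level itself was lower, at 495 CPM on 37 UMIs against 577 CPM. Fibroblasts had 790 CPM on 14 UMIs, against 692 CPM. Mural cells of C57BL/6 had only 2 UMIs at 10 weeks and 4 UMIs at 6 weeks.

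Much of the C57BL/6 signal outside these classes also sat beside fibroblasts. Unassigned nuclei of C57BL/6, whose markers were too few or mixed, held 72 Colec12 UMIs at 10 weeks (148 CPM) and 145 at 6 weeks (287 CPM). When all nuclei were clustered on genes other than Colec12, 1 cluster held 63 of these 72 UMIs (87.5%) and 133 of the 145 (91.7%). Of the marker-assigned nuclei in that cluster, 80.7% were fibroblasts, and its unassigned C57BL/6 nuclei had fibroblast marker levels of 4510 CPM at 10 weeks and 5345 CPM at 6 weeks.

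The low levels in C57BL/6 tubule nuclei were alike from class to class. At 6 weeks the 5 tubule classes and endothelium lay between 35.3 and 57.4 CPM, with shares of 1.74% to 3.05% of nuclei, and all 6 intervals overlapped. At 10 weeks the tubule classes lay between 3.85 and 15.4 CPM, with shares of 0.191% to 0.714% and overlapping intervals. Endothelium then stood at 30.9 CPM (13.3 to 60.8), on 8 UMIs, above the interval of the proximal tubule. The tubule shares lay below the upper limits that the macrophage counts of 0 allow. Those limits are wide, since they rest on 71 and 37 nuclei at 10 and 6 weeks with medians of 278 and 292 UMIs. The comparison cannot decide whether the tubule UMIs are background, and they are not read as expression. The part of free RNA was not tested. Proximal tubule nuclei of C57BL/6 with no UMI of any other class's markers held 4 Colec12 UMIs (3.58 CPM) in 1457 nuclei at 10 weeks and 33 UMIs (36.0 CPM) in 1118 nuclei at 6 weeks.

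Barcodes that occurred in more than 1 library held a small part of the C57BL/6 signal. In C57BL/6 at 10 weeks 10 of 170 nuclei with Colec12 (5.88%, 2.86 to 10.6) had a barcode that also occurred in an MRL/lpr library, against 218 of 8696 nuclei without it (2.51%, 2.19 to 2.86), and 4 of the 10 were podocytes. At 6 weeks the numbers were 8 of 391 nuclei with Colec12 (2.05%, 0.887 to 3.99) and 239 of 8756 without it (2.73%). With all shared barcodes left out, C57BL/6 podocytes had 553 CPM at 10 weeks and 420 CPM at 6 weeks, fibroblasts 635 and 832 CPM, and the proximal tubule 6.77 and 35.5 CPM. The MRL/lpr proximal tubule then had 4798 CPM at 10 weeks and 6048 CPM at 6 weeks, so the levels stayed within their intervals.

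Slc34a1 behaved differently from Colec12 across classes. In the proximal tubule it was at 9189 CPM in MRL/lpr and 9335 CPM in C57BL/6 at 10 weeks, and at 6685 CPM in MRL/lpr and 9441 CPM in C57BL/6 at 6 weeks. In MRL/lpr nuclei outside the proximal tubule it stood at a small part of that level, while Colec12 did not. For every Slc34a1 UMI the MRL/lpr proximal tubule held 0.523 Colec12 UMIs at 10 weeks and 0.904 at 6 weeks. The distal convoluted and connecting tubule held 12.6 (10.9 to 14.6) for each Slc34a1 UMI at 10 weeks, and at 6 weeks it held 26.4 (22.3 to 31.5). The ratio in this class was 24.0 times that of the proximal tubule at 10 weeks (20.8 to 27.9) and 29.2 times at 6 weeks (24.7 to 34.9) in MRL/lpr. In C57BL/6, where few Colec12 UMIs were counted, it was 35.7 times (14.2 to 74.7) at 10 weeks and 19.0 times (12.2 to 28.6) at 6 weeks, so the multiple by itself did not set the strains apart.

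The ratio was above that of the proximal tubule in all 9 other classes of both MRL/lpr libraries, and in 8 of 9 classes of both C57BL/6 libraries, where macrophages held 0 Colec12 UMIs and the interval of the thick ascending limb at 10 weeks held 1. In MRL/lpr it was lowest in macrophages, at 3.21 Colec12 UMIs per Slc34a1 UMI at 10 weeks and 2.67 at 6 weeks, followed by mural cells at 10 weeks, at 4.22, and by endothelium, at 4.23 and 3.54. In macrophages these were 6.14 (3.62 to 10.9) and 2.95 (1.48 to 6.29) times the proximal tubule value, and in endothelium 8.09 (6.46 to 10.2) and 3.92 (3.16 to 4.89) times.

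Free RNA can also come from the distal nephron, so 6 tubule genes were set beside Colec12 in the classes outside the tubule: Slc34a1 and Slc5a12 of the proximal tubule, Slc12a1 of the thick ascending limb, Slc12a3 of the distal convoluted tubule, Aqp2 of principal cells and Slc4a9 of intercalated cells. All but Slc34a1 served as class markers, which holds them down in other classes. In MRL/lpr endothelium Colec12 stood at 49.3% of its level over all kept nuclei at 10 weeks and at 43.5% at 6 weeks. The 6 tubule genes had 2.56% to 23.3% of theirs at 10 weeks and 8.70% to 19.7% at 6 weeks. In C57BL/6 endothelium Colec12 stood at 90.6% of its own low overall level at 10 weeks and at 76.6% at 6 weeks, against at most 11.7% and 17.7% for the tubule genes. These C57BL/6 values rest on 8 and 22 Colec12 UMIs. In MRL/lpr podocytes Colec12 was at 119% and 88.4% of its overall level, against at most 15.1% and 8.69% for any of the 6 genes.

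Macrophages of MRL/lpr gave a less clear picture. Colec12 stood at 34.9% of its overall level at 10 weeks and 36.5% at 6 weeks, Slc34a1 at 8.32% and 17.5%, and the highest tubule gene at 24.2% (Slc4a9) and 54.3% (Aqp2). Summed proximal tubule markers were at 1059 CPM in these nuclei at 10 weeks and 1599 CPM at 6 weeks, the second the highest of any class outside the proximal tubule, and their part in the macrophage level was not tested.

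**Figure D2:**
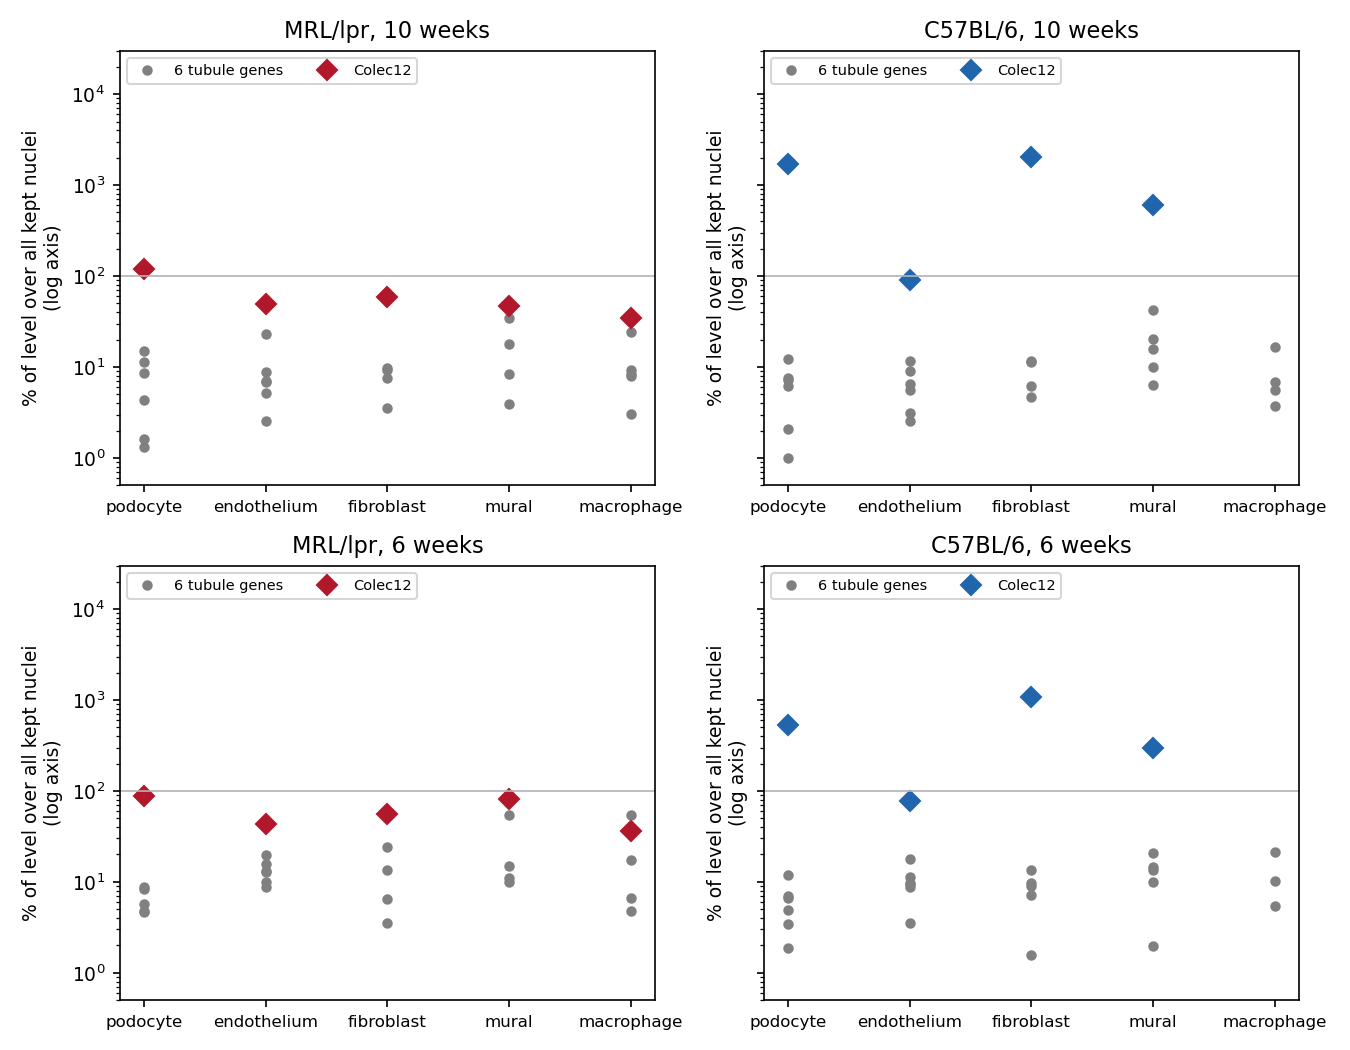
Level of Colec12 (diamonds) and of 6 tubule genes (grey points) in 5 classes outside the tubule, as a percentage of the gene's level over all kept nuclei of that library (log axis, line at 100%); MRL/lpr is at the left and C57BL/6 at the right, 10 weeks above and 6 weeks below, and genes with 0 UMIs are not drawn. Colec12 lay above all 6 tubule genes except in MRL/lpr macrophages at 6 weeks, where Aqp2 lay above it, and in C57BL/6 macrophages, where no Colec12 UMI was counted.

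Within the MRL/lpr proximal tubule, Colec12 was spread over the nuclei rather than held by a few. At 10 weeks a nucleus had a mean of 3.73 UMIs, a median of 3 and a maximum of 30, and at 6 weeks a mean of 5.33, a median of 4 and a maximum of 59. At 10 weeks 10.5% of nuclei had none, where nuclei of these depths at 1 common level would leave 4.27% with none, and at 6 weeks 5.13% had none, where 1.52% would. The variance over nuclei was 1.86 times that of 1 common level at 10 weeks and 2.32 times at 6 weeks. In C57BL/6 the most that any proximal tubule nucleus held was 2 UMIs, in 1 nucleus at 10 weeks and 5 nuclei at 6 weeks.

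**Figure D3:**
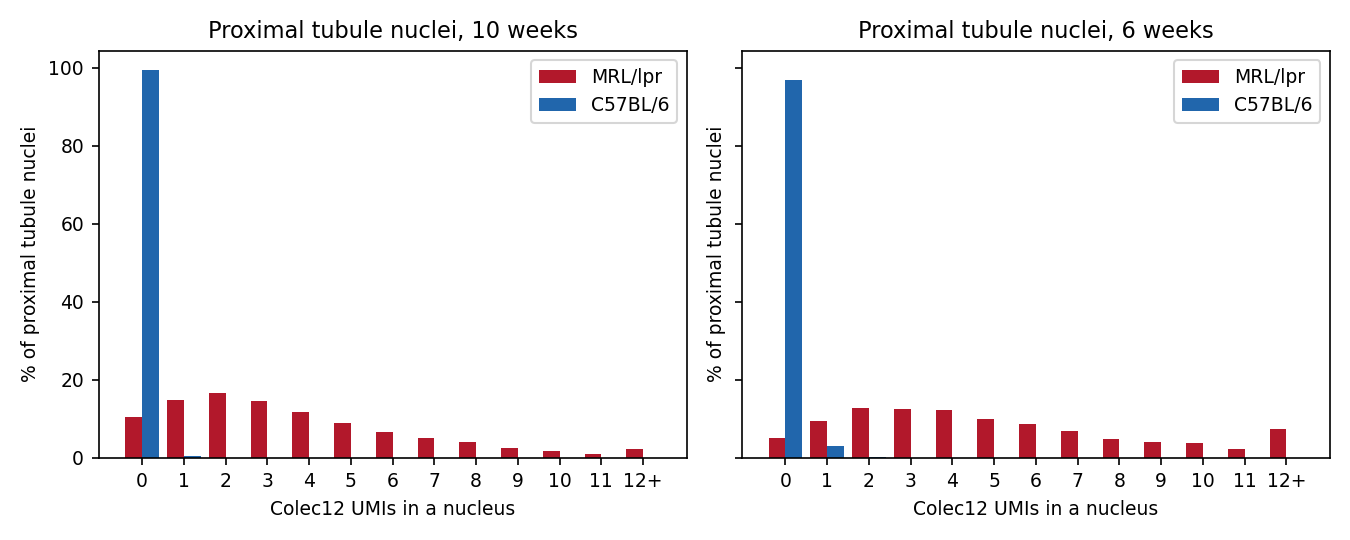
Percentage of proximal tubule nuclei (vertical axis) by the number of Colec12 UMIs counted in the nucleus (horizontal axis, 12 or more joined), with MRL/lpr in red and C57BL/6 in blue, at 10 weeks on the left and 6 weeks on the right. MRL/lpr nuclei spread over the whole axis around medians of 3 and 4 UMIs, and 99.4% and 97.0% of C57BL/6 nuclei had 0.

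Deeper nuclei held Colec12 at a higher level, which Slc34a1 did not share. When MRL/lpr proximal tubule nuclei were ordered by total UMIs and split in 5, the shallowest group had 3569 CPM of Colec12 and the deepest 5415 CPM at 10 weeks, and 5066 and 6391 CPM at 6 weeks. Slc34a1 ran the other way, with 12372 CPM in the shallowest and 7624 CPM in the deepest group at 10 weeks, and 8710 and 6109 CPM at 6 weeks. The group next to the deepest had 5329 CPM of Colec12 at 10 weeks and 6493 CPM at 6 weeks, and its interval overlapped that of the deepest at each age. Depth therefore moved with the Colec12 level inside the class, and its part in the age values below was not tested.

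**Figure D4:**
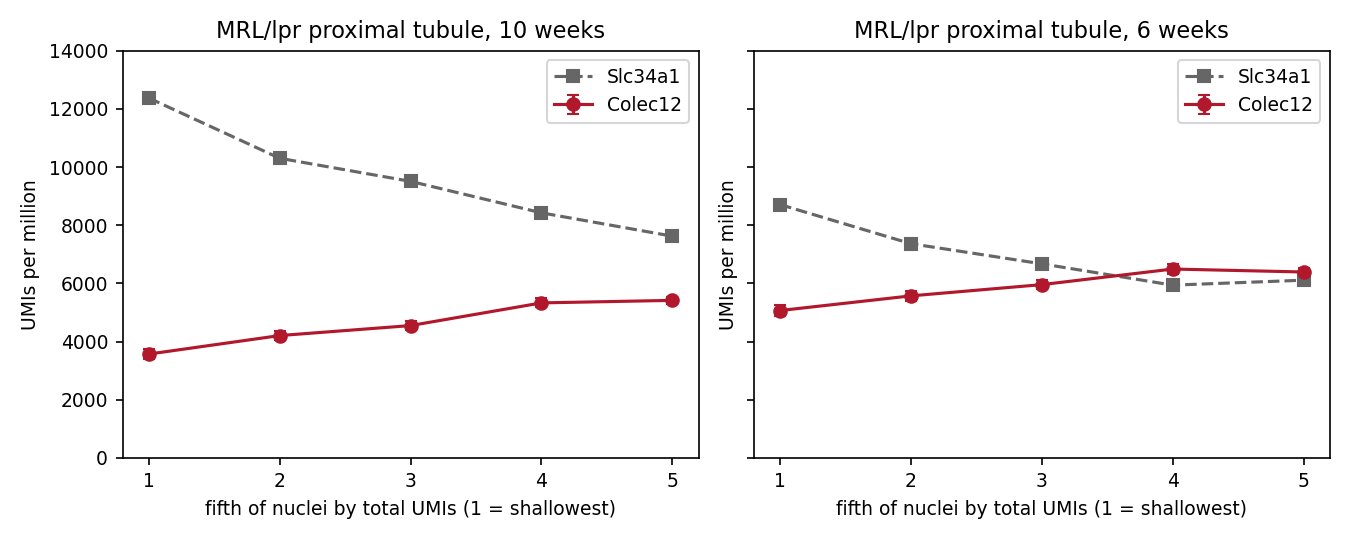
Level in CPM of Colec12 (red circles, bars are exact Poisson 95% intervals) and Slc34a1 (grey squares) in MRL/lpr proximal tubule nuclei split in 5 by total UMIs, with 10 weeks on the left and 6 weeks on the right. Colec12 was lowest in the shallowest nuclei, and Slc34a1 was highest there.

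Colec12 was abundant in all 3 segments of the proximal tubule. In MRL/lpr at 10 weeks nuclei led by markers of the first segment (S1) had 5081 CPM, those of the second (S2) 4471 CPM and those of the last (S3) 4959 CPM. At 6 weeks they had 6651, 5229 and 6224 CPM in the order S1, S2 and S3. S2 was lowest at both ages, and the S1 and S2 intervals did not overlap at either. Slc34a1 fell along the tubule in the same nuclei, to 3360 CPM in S3 against 9950 CPM in S1 at 10 weeks and to 2099 CPM in S3 against 7463 CPM in S1 at 6 weeks.

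Nuclei with interferon-induced transcripts had Colec12 intervals that held the level of the others, with no allowance for depth. With at least 2 UMIs of interferon markers such as Iigp1 and Gbp2, 138 MRL/lpr nuclei at 10 weeks had 4686 CPM (4323 to 5071), against 4802 CPM in nuclei with none. At 6 weeks 83 such nuclei had 5794 CPM (5356 to 6257), against 6055 CPM. The interferon-marked nuclei were deeper, with medians of 825.5 UMIs against 743 at 10 weeks and 923 against 786 at 6 weeks. The part of depth in their level was not tested. Nuclei with at least 2 UMIs of injury markers such as Havcr1 numbered 19 at 10 weeks, with 6635 CPM (5547 to 7873) against 4800 CPM in nuclei with none, and 10 at 6 weeks, with 5119 CPM (4013 to 6437) against 6064 CPM. The interval lay above the other nuclei at 10 weeks and held their level at 6 weeks. Injury-marked nuclei were also deeper, with medians of 831 UMIs against 746 at 10 weeks and 1266 against 790 at 6 weeks, and the part of depth was not tested.

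The MRL/lpr tubule level was lower at the later age. The 10-week proximal tubule had 0.794 times the 6-week level (0.780 to 0.809) in MRL/lpr and 0.207 times (0.131 to 0.316) in C57BL/6. In MRL/lpr the ratio of 10 to 6 weeks was 0.855 (0.813 to 0.900) in the distal convoluted and connecting tubule, 0.805 (0.754 to 0.859) in the thick ascending limb, 0.750 (0.695 to 0.808) in intercalated cells and 0.710 (0.667 to 0.757) in principal cells. Podocytes did not share the lower value, with 1.06 (0.925 to 1.22) in MRL/lpr and 1.44 (0.914 to 2.31) in C57BL/6. Fibroblasts, at 0.835 (0.601 to 1.17) in MRL/lpr and 0.853 (0.472 to 1.48) in C57BL/6, had intervals that held 1, as did MRL/lpr endothelium, at 0.896 (0.778 to 1.03), and macrophages, at 0.757 (0.486 to 1.20). MRL/lpr mural cells had the lowest ratio of the 10 classes, 0.453 (0.288 to 0.711), on 38 UMIs at 10 weeks and 47 at 6 weeks. Each age is 1 library, so age and library cannot be told apart. The C57BL/6 proximal tubule ratio rests on 27 and 127 UMIs, with a log2 value of -2.27. It became -3.33 in nuclei with no UMI of another class's markers, on 4 and 33 UMIs. In 1 random thinning it was -3.16, on 5 and 43 UMIs, while the separate draw behind the thinned shares left 8 and 36 UMIs. Counts this low cannot show whether the ratio moves with depth.

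The genes next to Colec12 on chromosome 18 did not share its strain difference. Of the 10 protein-coding genes in the matrices, 5 on either side, 8 were detected and 0 were 2-fold apart in the same direction at both ages, beside 2.63% higher and 1.73% lower among all genes. Their log2 ratios of MRL/lpr over C57BL/6 in the proximal tubule lay between -0.44 (Greb1l) and 0.55 (Thoc1) at 10 weeks and between -0.38 (Fzd8) and 0.33 (Greb1l) at 6 weeks. Colec12 stood at 9.36 (8.82 to 9.96) and 7.42 (7.17 to 7.68). Thoc1, the nearest detected gene and a part of the complex that exports messenger RNA, had 131 CPM in MRL/lpr and 89.4 CPM in C57BL/6 at 10 weeks, and 105 CPM in MRL/lpr and 100 CPM in C57BL/6 at 6 weeks.

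**Figure D5:**
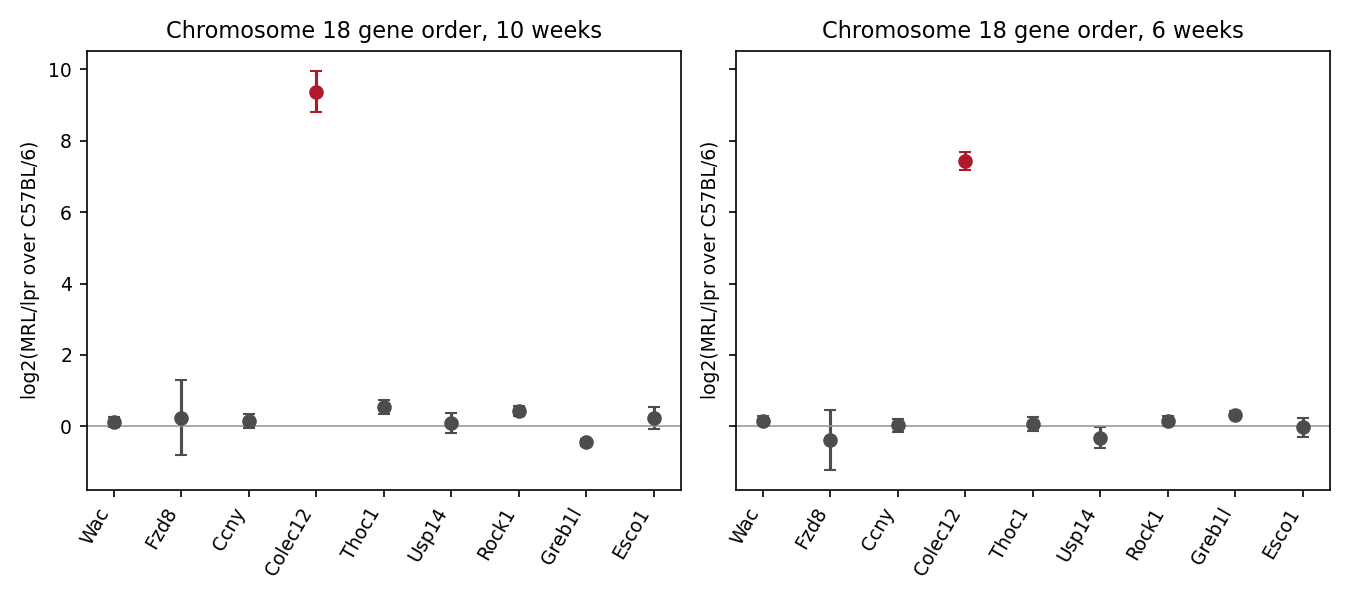
Log2 ratio of MRL/lpr over C57BL/6 in proximal tubule nuclei for Colec12 (red) and its 8 detected neighbours in gene order along chromosome 18, at 10 weeks on the left and 6 weeks on the right, with exact conditional 95% intervals. The neighbours lay between -0.44 and 0.55, and Colec12 at 9.36 and 7.42.

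Across tubule and podocyte classes Colec12 stood alone in 1 respect, which the way it was chosen and the UMI minimum favour. Of 757 genes with at least 50 UMIs in each of the 5 tubule classes and in podocytes, Colec12 was the 1 gene that exceeded C57BL/6 by 2-fold or more in all 6 classes of MRL/lpr at 10 and at 6 weeks. Its lowest fold over these classes was 10.9, and the next gene, Stam2, an endosomal sorting adaptor, had 1.94. Bbs9 followed at 1.41. Colec12 passed the minimum through its MRL/lpr UMIs, since the C57BL/6 thick ascending limb held 1 UMI at 10 weeks and 8 at 6 weeks. Genes confined to the proximal tubule could not pass it, so the place of Colec12 is a description.

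Other receptors and lectins related to collectin-12 were few. Of the other class A scavenger receptors, Msr1, the macrophage receptor for modified lipoprotein, had 36 and 6 UMIs over all kept nuclei at 10 weeks in MRL/lpr and C57BL/6, and 15 and 4 at 6 weeks. Scara5, a ferritin receptor of stromal cells, had 24 and 51 UMIs at 10 weeks and 45 and 58 at 6 weeks in the same order of strains. Scara3 had at most 2 UMIs in a library and Marco 0. These counts are over all classes, and the libraries differed in class make-up. Fibroblast nuclei numbered 76 in MRL/lpr and 68 in C57BL/6 at 10 weeks, and 42 and 184 at 6 weeks. Macrophage nuclei numbered 95 and 71, and 31 and 37. The part of class make-up in the counts was not tested. Colec12 had 30738 UMIs over all kept nuclei of MRL/lpr and 198 of C57BL/6 at 10 weeks, and 44014 and 434 at 6 weeks.

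Among soluble collectins and their partners 7 of 10 genes were detected in proximal tubule nuclei and 2 passed 50 UMIs, neither of them 2-fold apart at both ages. Mbl1, a serum mannose-binding lectin, had 8 UMIs in MRL/lpr and 31 in C57BL/6 at 10 weeks, and 28 and 26 at 6 weeks. Masp2, the protease that such lectins activate, had 19 UMIs in MRL/lpr and 1 in C57BL/6 at 10 weeks, and 22 and 4 at 6 weeks, which is under 50 in all. Cfp, which encodes properdin, had 51 and 34 UMIs at 10 weeks and 46 and 38 at 6 weeks.

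Of 18 other scavenger and endocytic receptors, 13 passed 50 UMIs in proximal tubule nuclei and 0 were 2-fold apart in the same direction at both ages, beside 2.63% and 1.73% of all genes. Their median log2 ratio was 0.36 at 10 weeks and 0.41 at 6 weeks, against 0.06 and -0.01 for all genes. By sign alone 8 of the 13 were above 0 at both ages and 1 below, against 32.9% and 28.2% of all genes. Of the 8, the intervals of Lrp2, Amn and Dab2 left out 0 at both ages. Those of Scarb2 and Cubn held 0 at 6 weeks, and those of Scarb1, Scarf1 and Cd68 at both ages. The 1 below, Lrp1, also had intervals that held 0 at both ages. Lrp2 had 1429 CPM in MRL/lpr and 1268 CPM in C57BL/6 at 10 weeks, and 1474 and 1016 CPM at 6 weeks. Cubn had 798 and 530 CPM at 10 weeks and 526 and 503 CPM at 6 weeks. Both also served as class markers of the proximal tubule. Dab2, the adaptor of megalin uptake, had 3286 and 2776 CPM at 10 weeks and 3314 and 2493 CPM at 6 weeks.

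The genes with a pattern most like that of Colec12 were sought over the 40 sums of 10 classes in 4 libraries, among 9375 genes. Bbs9 and Stam2 came first with Pearson's r of 0.76 each, followed by Cndp1, Prss48, Rims2, Zrsr1, Gm12166, Gm26632, Ifnk and Ttc39d, down to 0.65. Stam2 had 1148 UMIs in MRL/lpr and 133 in C57BL/6 in the proximal tubule at 10 weeks, and 1942 and 147 at 6 weeks. Sums of 1 library share its depth and strain, and each of the 10 had more proximal tubule UMIs in MRL/lpr than in C57BL/6 at both ages.

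Over the 20 C57BL/6 sums alone the most alike genes were others, led by Sparc (0.88), Mylk (0.87) and Septin11 (0.87). Rbms3, Plekha2, Prss23, Tjp1, Astn2 and Grk5 were also among the first 10, down to 0.82. Sparc encodes a matrix protein of stromal cells and podocytes, and Mylk the myosin light chain kinase. No gene was in both lists of 10, which is usual for lists this short out of 9375 genes and is not read as a result.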

How the data were processed

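The deposited files hold 1 matrix of UMI counts per library, made by the authors with Cell Ranger. Per the file headers its version was 5.0.0, while the submitters' processing notes name 3.1.0. Neither the build nor the treatment of intronic reads is given in the sources used here. The kits per the labels' protocols read the 3' end, so levels carry no length correction. Reads were not analysed here.

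Barcodes with fewer than 200 genes or over 10% mitochondrial UMIs were left out, as were doublets marked by Scrublet (scanpy 1.11.5, expected rate 0.8% per 1000 barcodes). In MRL/lpr 6 weeks the automatic threshold marked 0, so 702 barcodes were taken by score. A nucleus took the class with most marker UMIs, given at least 3 UMIs from at least 2 markers and at least 2 times those of any other class. Slc8a1 and Bcl11b were left out of the markers after they were seen to be broad. Counts were summed per class and scaled to CPM, with exact Poisson, binomial and conditional binomial intervals. No test was made: each strain and age is 1 library, and Colec12 was chosen on the strain contrast over both ages. A 0 was set at 3 counts in counts of genes past 2-fold. Overlaps and near copies came from GENCODE mouse release M21, which names chromosome 18. The ratio code and the class rule were tested on simulated counts. Named genes were Colec12, Slc34a1, the listed receptors and lectins, 5 neighbours on either side, 3 genes above and below in the proximal tubule order and 10 most alike by correlation of log2(CPM + 10), of which 1 is not reported here; Ccdc82 and Prss48 in the strain order were named after their values were seen. Members, lists and markers were chosen with earlier results of these data known.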

Additional observations from a re-analysis of the deposited data

Results flagged for a closer look

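The order of classes differed between strains in 3 classes, and this difference was not tested. In fibroblasts the log2 ratio of Colec12 to the proximal tubule of the same library was -0.63 in MRL/lpr and 6.56 in C57BL/6 at 10 weeks, and -0.70 in MRL/lpr and 4.52 in C57BL/6 at 6 weeks. In endothelium it was -0.88 and 2.08 at 10 weeks in MRL/lpr and C57BL/6, and -1.06 and 0.70 at 6 weeks. The C57BL/6 endothelium values rest on 8 UMIs at 10 weeks and 22 at 6 weeks. By alternative the first lay between 1.10, on 2 UMIs, and 3.02. In mesangial, smooth muscle and renin nuclei it was -0.97 and 4.83 at 10 weeks, and -0.16 and 2.65 at 6 weeks, on at most 4 UMIs in a C57BL/6 library. Both MRL/lpr libraries thus lay below their proximal tubule and both C57BL/6 libraries above it. At 6 weeks the intervals of mural nuclei in MRL/lpr and of endothelium in C57BL/6 held 0.

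Barcodes that entered no class sum also carried Colec12 in MRL/lpr. Unassigned nuclei had 5763 CPM in MRL/lpr and 148 CPM in C57BL/6 at 10 weeks, and 7210 CPM in MRL/lpr and 287 CPM in C57BL/6 at 6 weeks. Barcodes left out by the filters or as doublets, of any class, had 4763 CPM in MRL/lpr and 37.3 CPM in C57BL/6 at 10 weeks. At 6 weeks they had 7222 CPM in MRL/lpr and 87.7 CPM in C57BL/6.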

How the results depend on the processing

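The proximal tubule ratios kept their direction under all 10 alternatives. The log2 strain ratio of 9.36 at 10 weeks lay between 8.88 and 10.36; it became 10.36 when proximal tubule nuclei with a UMI of another class's markers were left out and 10.19 when nuclei were thinned to 300 UMIs. The log2 age ratio in C57BL/6, -2.27, became -3.33 and -3.16 under the same alternatives, which leave few C57BL/6 UMIs. The thinned values come from 1 random draw, with 5 and 43 C57BL/6 UMIs at 10 and 6 weeks. A separate draw left 8 and 36, so these values do not show a move with depth. The count of genes at least 2-fold apart at both ages was 526, and 860 with a minimum of 1 UMI. Colec12 was higher in MRL/lpr at both ages in every class that could be compared, 8 to 10 by alternative. Of the values of single classes 404 stayed within their interval, 20 moved beyond it, and 1 whose interval left out 0 changed sign: with clusters in place of marker counts, mural cells of C57BL/6 at 6 weeks stood at a log2 ratio of -0.11 to the proximal tubule, on few UMIs. Values whose interval held 0 could change sign. The thick ascending limb over the proximal tubule of C57BL/6 at 6 weeks did so, at -2.25 after thinning, on 1 UMI, against 0.11. Adding Slc8a1 and Bcl11b to the markers and leaving out shared barcodes were chosen after seeing the data. With at most 127 Colec12 UMIs per library in C57BL/6 tubule classes, depth limits their levels and fold sizes. No paired analysis was possible because each comparison sets 1 library against 1; a strain comparison over both ages, with age as a block, was not made, since Colec12 was chosen on that contrast.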
